A study of Mus musculus with 6 samples.

Results

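The genes described here are the 10 mouse genes for the enzymes that assemble triglyceride in the glycerol phosphate pathway and the monoacylglycerol pathway: *Gpam*, *Gpat3*, *Gpat4*, *Agpat2*, *Lpin1*, *Lpin2*, *Lpin3*, *Dgat1*, *Dgat2* and *Mogat1*. They were listed by symbol, and all 10 were found among the 55401 genes of the count tables. The counts come from bulk RNA-seq of whole subcutaneous white adipose tissue (scWAT) of male mice 8 weeks old. The 3 control libraries (YT-FF) carry floxed *Yap* and *Taz* alleles without Cre, and the sample labels call them WT. The 3 YT-AKO libraries carry the same floxed alleles with *Adipoq*Cre, in which the adiponectin promoter drives Cre in mature adipocytes. The floxed alleles are therefore shared by both groups, and the other cells of the tissue are not targeted. The mice were housed at room temperature, and n = 3 mice in each group.

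Triglyceride is built stepwise on a glycerol backbone. Glycerol-3-phosphate acyltransferases (GPAT) add the first fatty acid, 1-acylglycerol-3-phosphate acyltransferases (AGPAT) add the next and give phosphatidic acid, lipins remove the phosphate to give diacylglycerol, and diacylglycerol acyltransferases (DGAT) add the last fatty acid. Monoacylglycerol acyltransferases (MGAT) reach diacylglycerol by a separate route. White adipocytes store triglyceride in a single large droplet, and loss of AGPAT2 or of seipin causes congenital lipodystrophy.

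The libraries held 17740987 to 21838493 counted fragments, and the smallest count of any of the 10 genes in any library was 149, for *Lpin3*. YT-AKO 2 stood apart from the other libraries of its group: a chi-square test of the counts gave a statistic per degree of freedom of 177 and 161 against YT-AKO 1 and 3, while those 2 differed by 31.9 and the YT-FF pairs by 13 to 36. The log2 fold change of all tested genes was related to the summed exon length, with Spearman's rho of -0.376 across genes and -0.283 without YT-AKO 2. Genes are not independent replicates, so no p is given. The targeted genes were checked in counts scaled to the library size times its TMM factor (TMM CPM). *Yap1* was at 69.1, 57.1 and 66.7 in YT-FF and at 37.7, 29.0 and 31.3 in YT-AKO (log2 fold change -0.98, SE 0.167, adjusted p = 0.0179). *Wwtr1*, which encodes TAZ, was at 77.5, 76.0 and 98.8 in YT-FF and at 175, 133 and 161 in YT-AKO (0.89, SE 0.182, adjusted p = 0.0220). *Wwtr1* RNA thus went against the label. By immunoblot, the paper reports clearly less YAP and TAZ protein in scWAT of YT-AKO mice, which is a measure of protein and not of RNA. The counts run over all exons, so the loss of single exons cannot be seen in them, and every direction below rests on libraries labelled YT-AKO. The tissue label was checked on 12 mature adipocyte markers, and each of them had enough counts to be tested. *Adipoq*, for the hormone adiponectin, was at 4510 TPM (counts divided by summed exon length and scaled to the same total in each library) on average in YT-FF and 3850 in the libraries labelled YT-AKO. In TMM CPM its means went the other way, from 1650 to 2230, and the difference did not pass (log2 fold change 0.43, SE 0.22, adjusted p = 0.176). The epithelial markers summed to at most 7.57 TPM in any library.

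The sequence just before a RefSeq start site is shown for *Gpat3* and *Agpat2*, which had the largest differences of the 10. RefSeq promoter windows of 300 bases (250 before and 50 after a start site, build GRCm38.p6) matched 7 of the 10 genes by symbol, with 11 windows. *Gpat4*, *Dgat1* and *Dgat2* were not examined. The windows of *Gpat3* and *Agpat2* hold runs of GC boxes, the letters GGGCGG on either strand, which are marked in capitals. The stretch of *Gpat3* lies at chr5:100846142-100846171 on the plus strand, 87 to 58 bases before the start site of its window. The annotated gene begins earlier, at 100845713, so this stretch lies within its span. The stretch of *Agpat2* lies at chr2:26604418-26604667 on the minus strand and covers the 250 bases before the start site.
Gpat3: gcggggGGGCGGGGCGGaGGGCGGcggctc
Agpat2: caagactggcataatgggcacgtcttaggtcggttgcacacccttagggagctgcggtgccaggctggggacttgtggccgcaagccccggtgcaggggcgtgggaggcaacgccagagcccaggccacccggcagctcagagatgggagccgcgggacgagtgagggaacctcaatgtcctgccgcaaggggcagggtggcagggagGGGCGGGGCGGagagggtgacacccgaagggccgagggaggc
In both, the first pair of GC boxes overlaps by 1 base, and the whole 300-base windows hold 3 GC boxes each. GC boxes stood in 6 of the 11 windows, in 5 of the genes, and in 35.7% of all 32851 windows. The core letters bound by TEAD factors, the DNA-binding partners of YAP and TAZ, are GGAATG, and they stood in 14.7% of all windows. They were found in 2 of the 11 windows, in a window of *Gpam* and a window of *Lpin3*. The E-box CACGTG (7.15% of all windows) was found for *Lpin2* and *Lpin3*. The nuclear receptor half-site AGGTCA (16.3%) was found for *Gpam* and *Lpin1*, and the CCAAT box, CCAAT (37.4%), in 3 windows. The letters of the GC box and the CCAAT box were added to the search after the values were seen. The start site of the *Gpam* window with the TEAD core and the half-site matched no annotated transcript of the gene. The same held for the *Lpin2* window with the E-box and for the *Mogat1* window. A match is a description of the letters only.

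Of the 10 genes, 3 rose in YT-AKO at an adjusted p under 0.05, 0 fell and 7 did not pass. These were *Gpat3*, *Agpat2* and *Dgat1*, which act at the first, middle and last acylation steps. The adjusted p-values come from edgeR (quasi-likelihood, Benjamini-Hochberg over the 16807 genes tested, which included all 10). Over all tested genes, 21.6% were called in either direction, 12.6% higher and 9.01% lower. At an unadjusted p under 0.05, 6852 of all tested genes passed. For 6 of the 10 genes the lowest YT-AKO value exceeded the highest YT-FF value, and for 1 the groups were separated the other way, against 25.7% and 25.8% of all tested genes. The median log2 fold change was 0.50 over the 10 genes and -0.02 over all genes. Without YT-FF 1 or YT-FF 2, 0 of the 10 genes passed (and 0 and 2 of all genes), with *Gpat3* at an adjusted p of 0.111 in both cases and *Agpat2* at 0.120 and 0.121. Leaving out YT-AKO 2 let 5 of the 10 pass, and the share of all tested genes called also rose, from 21.6% to 30.8%. With a correction for gene length *Gpat3* remained called (adjusted p = 0.0242), and *Agpat2* (0.0551) and *Dgat1* (0.0705) did not pass. In bulk tissue, fewer cells of a type and less RNA per cell cannot be told apart.

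**Figure D1:**
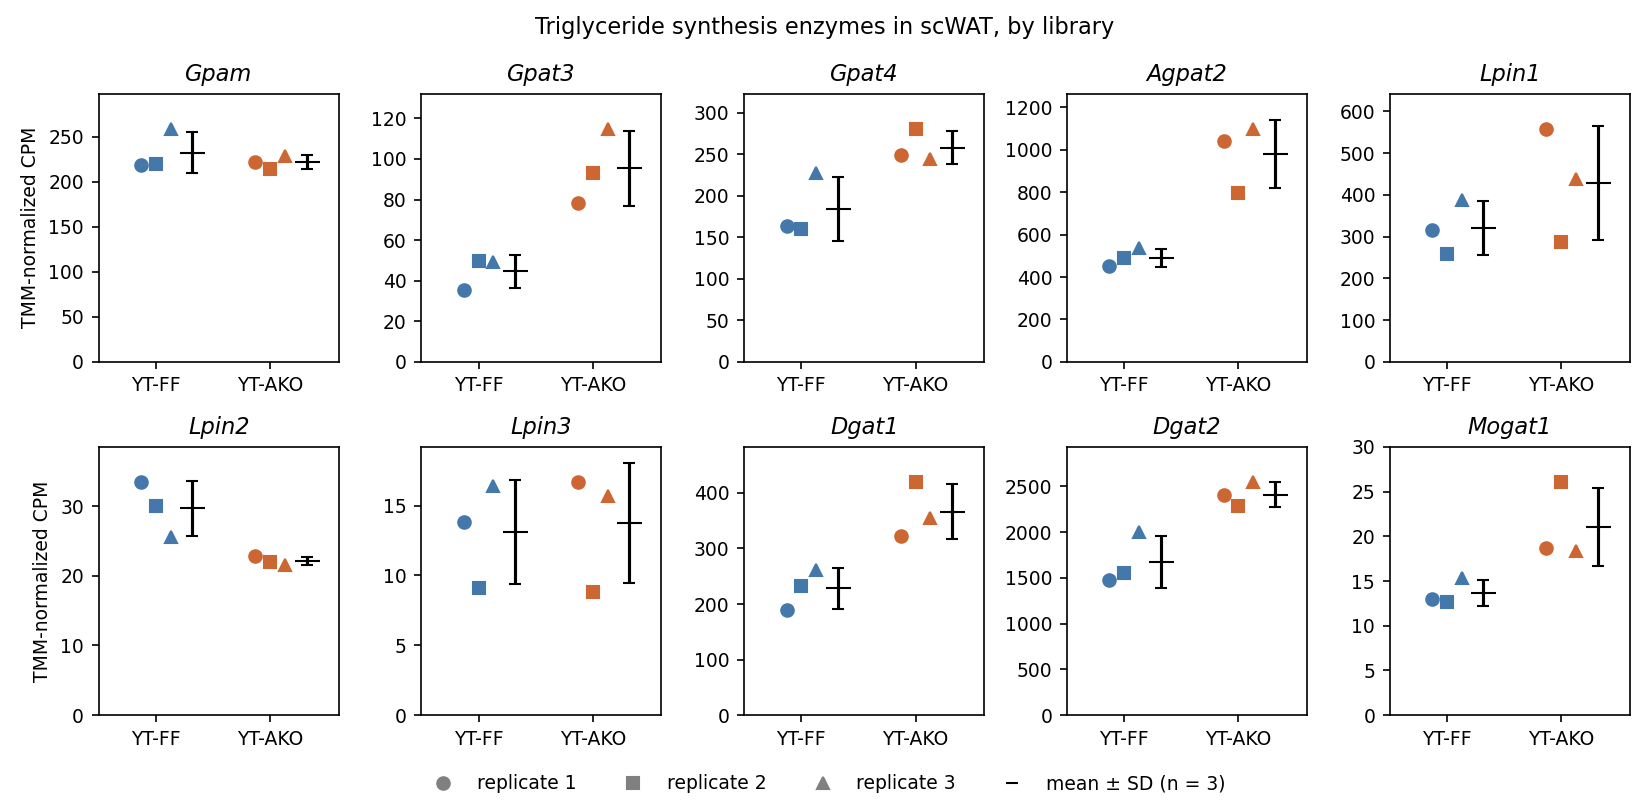
TMM CPM of each of the 10 genes (vertical axes start at 0) in the 3 YT-FF libraries and the 3 libraries labelled YT-AKO, with marker shapes for replicates and the mean ± SD (n = 3) beside them. The points of *Gpat3*, *Gpat4*, *Agpat2*, *Dgat1*, *Dgat2* and *Mogat1* in YT-AKO all lie above those in YT-FF, those of *Lpin2* all lie below, and those of *Gpam*, *Lpin1* and *Lpin3* overlap.

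The 3 GPAT genes of the first step did not move alike. *Gpam* (ENSMUSG00000024978, chromosome 19, 55067268 to 55127238 of mm10) encodes the mitochondrial GPAT1. It was at 218, 220 and 259 TMM CPM in YT-FF and at 222, 214 and 229 in the libraries labelled YT-AKO. The groups overlapped, with a log2 fold change of -0.07 (SE 0.155, 95% interval -0.43 to 0.29, adjusted p = 0.758). *Gpat3* (ENSMUSG00000029314, chromosome 5, 100845713 to 100899102) encodes an acyltransferase of the endoplasmic reticulum. Its level was 35.3, 49.8 and 49.1 TMM CPM in YT-FF and 78.1, 93.1 and 115 in YT-AKO. It rose by 1.09 on the log2 scale (SE 0.211, 95% interval 0.60 to 1.58, adjusted p = 0.0203), a fold of 2.13, with every YT-AKO library above every YT-FF library. *Gpat3* shares 37.4% of its exon bases with *4930458D05Rik* on the opposite strand and *Gm42987*, and reads were counted without strand, so fragments there cannot be assigned to one gene. *4930458D05Rik* itself had 63 to 99 counts per library, against 829 to 1951 for *Gpat3*. *Gpat4* (ENSMUSG00000031545, chromosome 8, 23171265 to 23208346), the other endoplasmic reticulum enzyme, was at 164, 160 and 228 TMM CPM in YT-FF and 249, 281 and 244 in YT-AKO. Its groups did not overlap, but the nearest libraries were only 228 and 244. The difference of 0.49 (SE 0.192, 95% interval 0.04 to 0.93, adjusted p = 0.0981) did not pass. With the gene length correction it was 0.76 (adjusted p = 0.0535).

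The balance within the GPAT family was compared as a ratio of TPM. A ratio of 2 genes in 1 library does not depend on how libraries are scaled. *Gpat3* amounted to 0.308, 0.430 and 0.361 of the *Gpam* level in YT-FF and to 0.670, 0.826 and 0.960 in YT-AKO. The log2 ratio went from -1.46 ± 0.241 to -0.30 ± 0.260 (SD, n = 3), a difference of 1.16 (two-sided exact permutation test, p = 0.1, the smallest that 3 against 3 libraries allow, 0.25 after adjustment over the 5 ratios compared). The ratio of *Gpat4* to *Gpam* was 0.750, 0.723 and 0.879 in YT-FF and 1.12, 1.31 and 1.06 in YT-AKO. *Gpam* was thus the more abundant of this pair in all 3 YT-FF libraries and *Gpat4* in all 3 labelled YT-AKO. The log2 difference was 0.57 (exact permutation test, p = 0.1, adjusted 0.25). The summed exon lengths of *Gpam* and *Gpat4* are 6664 and 6682 bases, so the pair differs little in length, whereas *Gpat3* has 3502. Fragments on exon bases shared between genes were not counted, but TPM divides by all exon bases. The *Gpat3* level, with 37.4% of its bases shared, may therefore be too low beside *Gpam* and *Gpat4*, which share none. As shares of the summed GPAT TPM, *Gpam* went from 46.6% ± 1.98 to 33.6% ± 2.02, *Gpat3* from 17% ± 2.63 to 27.4% ± 3.96 and *Gpat4* from 36.4% ± 2.84 to 39.0% ± 3.40 (SD, n = 3). The shares of *Gpam* and *Gpat3* did not overlap between the groups, and those of *Gpat4* did.

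**Figure D2:**
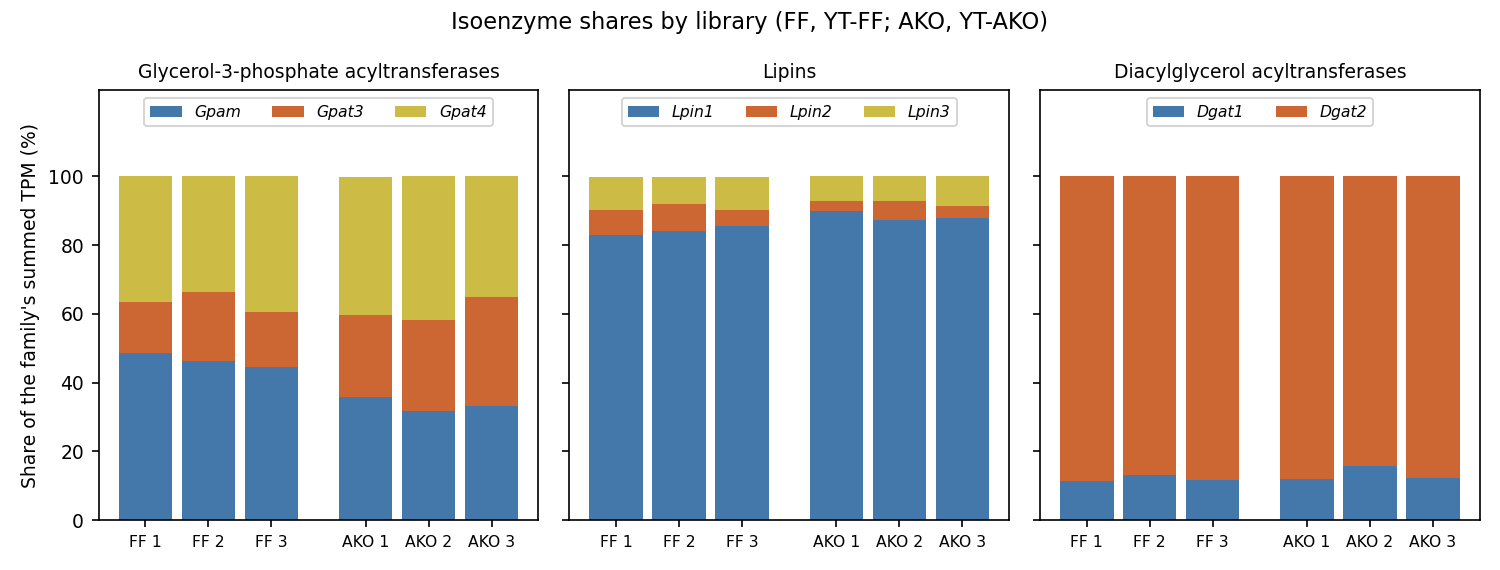
Share of the summed TPM of each enzyme family (percent) held by each of its genes in every YT-FF library and every library labelled YT-AKO. *Gpam* held 44.6 to 48.6% of the GPAT family in YT-FF and 31.9 to 35.8% in YT-AKO, while *Lpin1* held 83.1 to 89.8% and *Dgat2* 84.3 to 88.6% of their families over all libraries.

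*Agpat2* encodes the main acyltransferase of the next step in adipose tissue and was among the most changed of the 10 genes. It lies on chromosome 2, 26593057 to 26604417 (ENSMUSG00000026922). Its level was 450, 488 and 536 TMM CPM in YT-FF and 1040, 798 and 1100 in the libraries labelled YT-AKO. All YT-AKO libraries were above all YT-FF libraries, and YT-AKO 2 was the lowest of them. It rose by 0.99 on the log2 scale (SE 0.199, 95% interval 0.53 to 1.46, adjusted p = 0.0213), a fold of 1.99. With the gene length correction its log2 fold change was 0.72 (adjusted p = 0.0551), below *Lpin1* at 0.81 and *Gpat4* at 0.76. *Agpat2* took up 23.9% ± 1.38 of the summed TPM of the 10 genes in YT-FF and 30.1% ± 2.90 in YT-AKO (SD, n = 3), and those shares did not overlap. It shares 3% of its exon bases with *Egfl7*, on the opposite strand.

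None of the 3 lipin genes passed the test. *Lpin1* (ENSMUSG00000020593, chromosome 12, 16535669 to 16646966), the main lipin of adipose tissue and also abundant in muscle, was at 316, 258 and 387 TMM CPM in YT-FF and at 559, 287 and 437 in YT-AKO. The groups overlapped, and the log2 fold change was 0.42 (SE 0.276, 95% interval -0.22 to 1.06, adjusted p = 0.284). YT-AKO 1 had the highest value of *Lpin1* and also the highest sum of the 10 skeletal muscle markers, 3470 TMM CPM against 159 to 528 in the other 5 libraries. Of the 9 muscle markers tested, only *Acta1*, a skeletal actin, was called, and it was higher. With YT-AKO 1 left out, *Lpin1* differed by 0.18 (adjusted p = 0.633), and with YT-AKO 2 left out by 0.63 (adjusted p = 0.0351). With the gene length correction it differed by 0.81 (adjusted p = 0.0552). The part of muscle RNA in the *Lpin1* values was not tested. *Lpin2* (ENSMUSG00000024052, chromosome 17, 71182560 to 71249817) was at 33.5, 30 and 25.6 in YT-FF and 22.8, 22 and 21.6 in YT-AKO. It was the only one of the 10 genes with every YT-AKO library below every YT-FF library, at a log2 fold change of -0.42 (SE 0.161, 95% interval -0.80 to -0.05, adjusted p = 0.0906). It also has the longest exons of the 10 genes, 12233 bases, against a median of 3890 over the tested genes, and with a correction for gene length its log2 fold change was 0.10 (adjusted p = 0.691). *Lpin3* (ENSMUSG00000027412, chromosome 2, 160880670 to 160906002) was at 13.8, 9.10 and 16.4 in YT-FF and 16.7, 8.79 and 15.7 in YT-AKO. These spreads nearly coincide, and the log2 fold change was 0.07 (SE 0.314, 95% interval -0.66 to 0.80, adjusted p = 0.883). *Lpin1* held 84.3% ± 1.26 of the lipin TPM in YT-FF and 88.4% ± 1.27 in YT-AKO. The log2 ratios of *Lpin2* and *Lpin3* to *Lpin1* differed by -0.78 and -0.32 (exact permutation tests, p = 0.2 for each, adjusted 0.25).

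The 2 DGAT genes encode unrelated enzymes for the same last reaction. *Dgat1* (ENSMUSG00000022555, chromosome 15, 76502015 to 76511953) was at 190, 232 and 262 TMM CPM in YT-FF and at 323, 420 and 354 in the libraries labelled YT-AKO. It rose by 0.68 on the log2 scale (SE 0.194, 95% interval 0.24 to 1.13, adjusted p = 0.0433), a fold of 1.61, without overlap. This call lay close to the threshold, and it was lost without YT-FF 1, 2 or 3 or YT-AKO 3 (adjusted p = 0.178, 0.163, 0.0661 and 0.0732). *Dgat2* (ENSMUSG00000030747, chromosome 7, 99153658 to 99182719), whose enzyme lies on the endoplasmic reticulum and lipid droplets, was at 1480, 1550 and 2000 in YT-FF and at 2400, 2280 and 2550 in YT-AKO. Its groups did not overlap either, with a log2 fold change of 0.52 (SE 0.208, 95% interval 0.04 to 1, adjusted p = 0.101). Without YT-AKO 2 the adjusted p of *Dgat2* was 0.0327, and with DESeq2 it was 0.0226. The ratio of *Dgat2* to *Dgat1* in TPM was 7.75, 6.63 and 7.57 in YT-FF and 7.36, 5.37 and 7.15 in YT-AKO. The log2 difference of -0.15 was within the spread between libraries (exact permutation test, p = 0.5, adjusted 0.5).

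*Mogat1* (ENSMUSG00000012187, chromosome 1, 78510991 to 78538173) encodes MGAT1, which acylates monoacylglycerol. It was at 13, 12.7 and 15.3 TMM CPM in YT-FF and at 18.7, 26.1 and 18.4 in YT-AKO. The groups did not overlap, and YT-AKO 2 was the highest. The log2 fold change was 0.63 (SE 0.205, 95% interval 0.15 to 1.10), with an adjusted p of 0.0613 in edgeR and 0.0387 in DESeq2. It was 0.24 (adjusted p = 0.323) with the gene length correction and 0.28 (adjusted p = 0.254) on library totals. *Mogat1* shares 12.8% of its exon bases with *BC035947* on the opposite strand.

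The direction of a difference depended on how the libraries were scaled. TMM put the median log2 difference of all tested genes at -0.02, library totals alone at -0.34 and TPM at -0.71. On library totals *Lpin3* turned to -0.22, and on TPM *Gpat4*, *Lpin1*, *Lpin3*, *Dgat2* and *Mogat1* turned below 0, while *Gpat3* was at 0.41, *Agpat2* at 0.30 and *Dgat1* at 0.01. Measured from the median of all genes under TMM, 8 of the 10 genes lay above it and *Gpam* and *Lpin2* below, with *Gpat3* at 1.11, *Agpat2* at 1.02, *Dgat1* at 0.70 and *Lpin2* at -0.40. A scaling moves every gene by about the same amount, so these relative values were nearly the same under the other 2 scalings by construction. The summed level of the 10 genes was 3230 ± 472 TMM CPM in YT-FF and 4810 ± 341 in YT-AKO, but 3680 ± 368 and 3720 ± 1100 TPM (SD, n = 3). YT-AKO 2 had 2460 TPM, the lowest of the 6 sums, and it was the lowest library in TPM for 8 of the 10 genes. In the same library *Cfd*, the adipocyte gene for complement factor D, alone stood at 92800 TPM, against 20900 to 25300 in YT-FF and 56600 and 56900 in the other 2. The other 11 adipocyte markers summed to 19800 to 26500 TPM in YT-FF and 20900 to 24900 in YT-AKO. Among these markers, *Adipoq* (3050 TPM), *Plin1* (551) and *Lpl* (1360) were lowest in YT-AKO 2 of all 6 libraries. *Fabp4* (7900 TPM) and *Retn* (2610) were highest there. In TMM CPM *Adipoq* (2400) and *Lpl* (8130) were highest in YT-AKO 2, and *Plin1* (1460) was lowest.

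**Figure D3:**
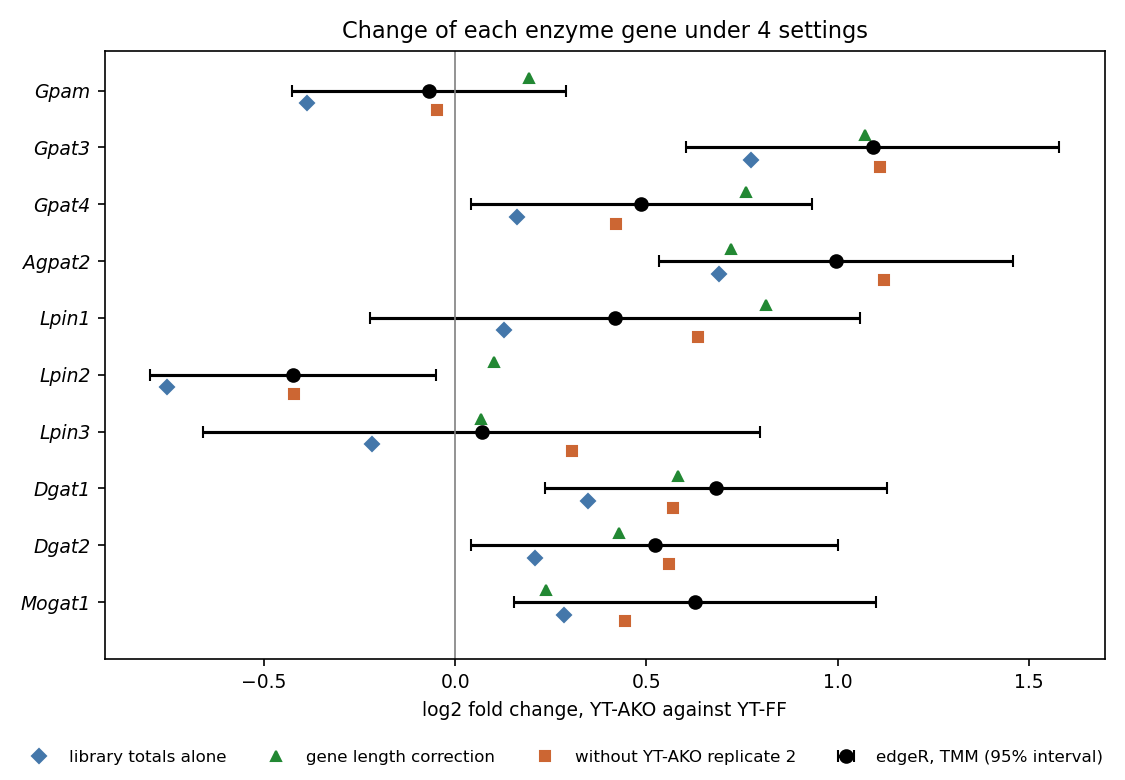
Log2 fold change of each of the 10 genes, YT-AKO against YT-FF, from edgeR with TMM (black, with 95% interval) and, without intervals, from library totals alone, a gene length correction and the fit without YT-AKO 2. *Gpam*, *Lpin2* and *Lpin3* change side of 0 in at least 1 of the 4, and the other 7 genes are above 0 in all of them.

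Levels can be compared between genes only per length, in TPM. In YT-FF, *Dgat2* was highest at 2060 ± 252 TPM, followed by *Agpat2* at 875 ± 54.7 and *Dgat1* at 282 ± 38.0 (SD, n = 3). These 3 did not overlap with their neighbours. Next came *Gpam* at 132 ± 7.29, *Lpin1* at 122 ± 18.9 and *Gpat4* at 104 ± 16.7, and within these 3 neighbouring genes overlapped in range. *Gpat3* at 48.5 ± 8.86 and *Mogat1* at 33.2 ± 1.93 stood apart from each other. Both share exon bases with other genes, where fragments were not counted, so their levels may be too low. *Lpin3* at 13.3 ± 3.25 and *Lpin2* at 9.25 ± 1.53 were lowest, with overlapping ranges. In the libraries labelled YT-AKO the first 3 places were unchanged, at 1900 ± 529, 1140 ± 420 and 283 ± 38.1 TPM, but the ranges of *Dgat2* and *Agpat2* overlapped. *Lpin1*, *Gpat4* and *Gpam* followed at 109 ± 53.9, 92.3 ± 16.3 and 80.8 ± 21.2, and here *Gpam* was the last of the 3. *Dgat2* held 55.9% ± 1.42 of the summed TPM of the 10 genes in YT-FF and 51.4% ± 1.18 in YT-AKO.

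**Figure D4:**
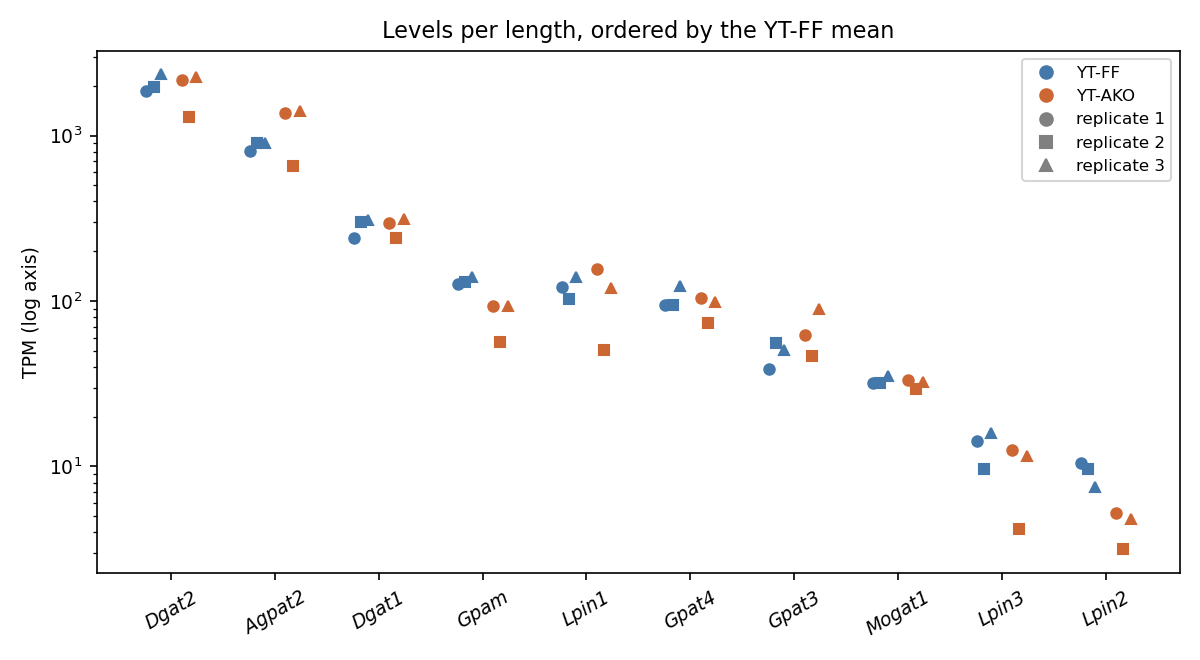
TPM of the 10 genes on a log axis in each YT-FF library and each library labelled YT-AKO, ordered by the mean in YT-FF. Mean levels in YT-FF run from 2060 TPM for *Dgat2* to 9.25 for *Lpin2*, and *Gpam* and *Gpat4* change places between the groups.

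The other genes of glycerolipid synthesis were read from 3 further lists. Among 14 other acyltransferases and phosphatidate phosphatases, 11 were tested, 2 were higher and 0 lower, with a median log2 fold change of 0.44. *Agpat3*, an acyltransferase that acts on lysophospholipids, was at 165, 162 and 196 TMM CPM in YT-FF and at 297, 370 and 300 in YT-AKO (0.89, SE 0.175, adjusted p = 0.0207). *Plpp2*, a phosphatase of lipid phosphates, was at 9.08, 7.87 and 8.08 and at 12.8, 22 and 18.5 (1.09, SE 0.238, adjusted p = 0.0247). *Agpat1*, the close relative of *Agpat2*, did not pass (0.44, SE 0.173, adjusted p = 0.0978).

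Among 11 genes of substrate supply and partners, 10 were tested, 4 were higher and 0 lower, with a median of 0.49. *Gpd1*, the dehydrogenase that makes glycerol-3-phosphate from a glycolytic intermediate, was at 889, 786 and 1090 TMM CPM in YT-FF and 2590, 1870 and 2810 in YT-AKO (1.40, SE 0.242, adjusted p = 0.0182). *Gk*, glycerol kinase, which makes it from free glycerol, was at 8.01, 10.5 and 12.4 and at 32.5, 17.2 and 27.1 (1.32, SE 0.281, adjusted p = 0.0238). *Gpd1* was far above *Gk* in level (1180 against 5.03 TPM on average in YT-FF). Their relatives in the list had negative differences that did not pass: *Gpd1l*, at 62.4 TPM on average in YT-FF, was at 82.4, 84 and 83.9 TMM CPM in YT-FF and 63.8, 43.9 and 67.4 in YT-AKO (-0.52, SE 0.189, adjusted p = 0.0821), without overlap, and *Gk5* was at -0.75 (SE 0.481, adjusted p = 0.271). *Bscl2*, which encodes seipin, went from 178, 211 and 220 to 369, 708 and 402 (1.28, SE 0.276, adjusted p = 0.0241). *Ctdnep1*, a phosphatase that acts on lipins, went from 68.0, 64.1 and 66.4 to 113, 155 and 113 (0.94, SE 0.175, adjusted p = 0.0194). YT-AKO 2 was the highest library for *Bscl2* and *Ctdnep1* and the lowest of its group for *Gpd1* and *Gk*.

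Among 16 genes that lead phosphatidic acid or diacylglycerol away to phospholipids or back, 13 were tested, 2 were higher and 2 lower, and the median was -0.47. *Cdipt*, phosphatidylinositol synthase, and *Pgs1*, an enzyme of cardiolipin synthesis, were higher (0.55, SE 0.154, adjusted p = 0.0424, and 0.56, SE 0.166, adjusted p = 0.0481). *Dgka*, a diacylglycerol kinase known from T cells, was at 260, 222 and 147 TMM CPM in YT-FF and 116, 109 and 106 in YT-AKO and fell by 0.93 (SE 0.225, adjusted p = 0.0300). *Cds2*, which activates phosphatidic acid for phospholipid synthesis, was at 178, 160 and 157 and at 106, 84.3 and 105 and fell by 0.75 (SE 0.161, adjusted p = 0.0243). *Cds2* has 9125 exon bases, well above the median of tested genes. Of the 5 T cell markers, *Cd4* was lower (-0.89, SE 0.196, adjusted p = 0.0253) and the others were not called, with *Cd3d* at 1.20, *Cd3g* at 0.45, *Cd8a* at -0.16 and *Cd3e* at -0.33. Among B cell markers *Ms4a1* and *Cr2* were lower (-1.17 and -1.11, adjusted p = 0.0166 for each), and *Cd79a* and *Cd79b* were not called (-0.14 and -0.08). Their part in the result was not tested. Over the 3 lists, 8 genes were called higher and 2 lower, and without YT-FF 1 or YT-FF 2 these counts were 0 and 0, without YT-FF 3 2 and 1, and without YT-AKO 2 11 and 6. The share of all tested genes called was 21.6% with all libraries, 7.06% without YT-FF 3 and 30.8% without YT-AKO 2.

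**Figure D5:**
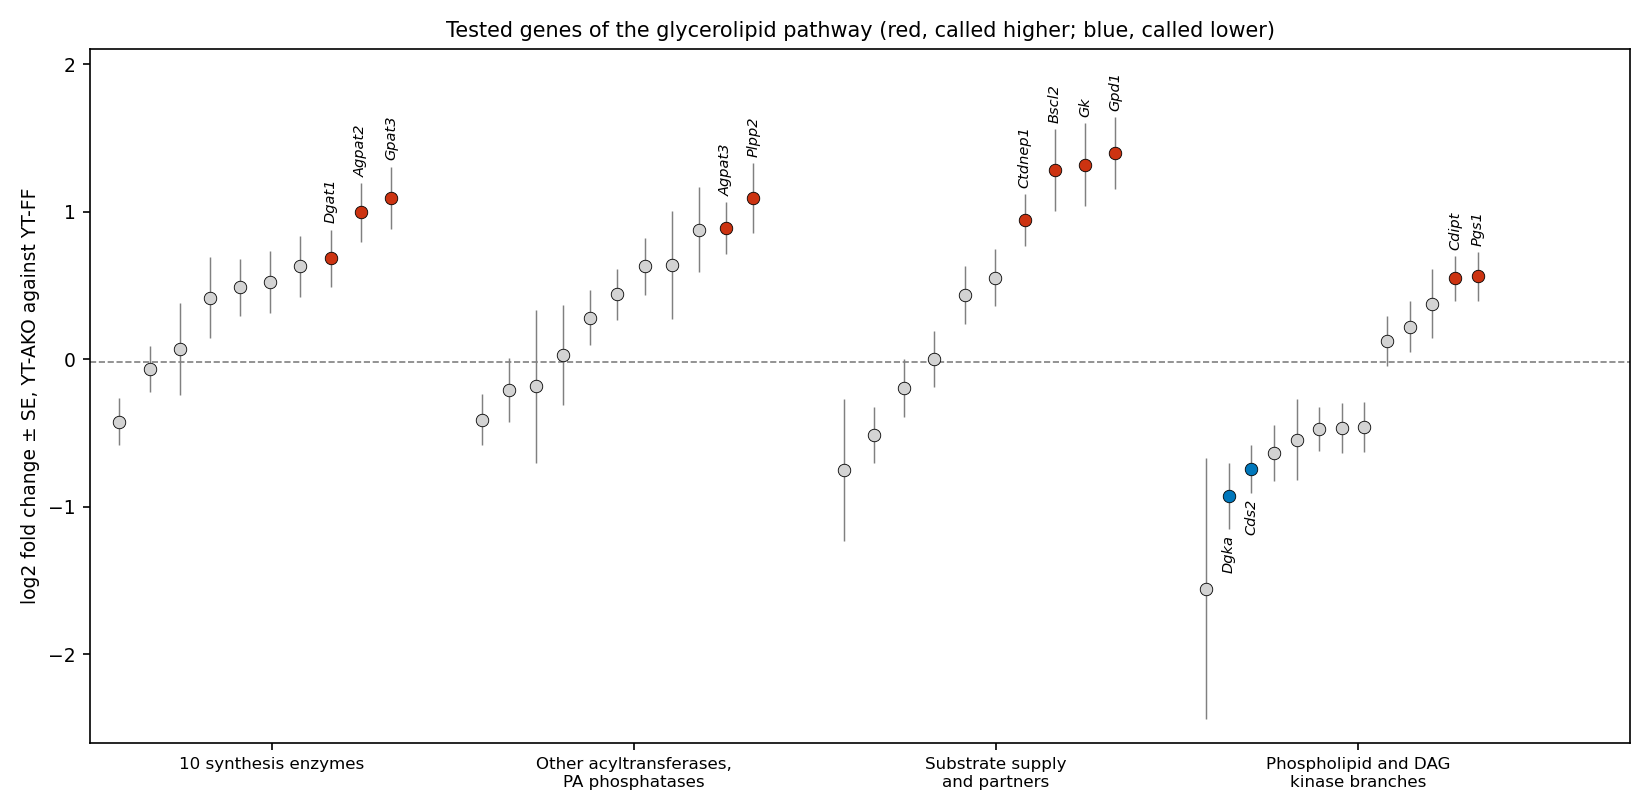
Log2 fold change ± SE (YT-AKO against YT-FF, edgeR) of every tested gene in the 10 synthesis enzymes and the 3 other lists, ordered within each list, with genes called at an adjusted p under 0.05 in color and named, and the median of all tested genes as a dashed line. The called genes are higher in the first 3 lists, and *Dgka* and *Cds2* are the 2 called lower in the last.

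Markers of the cell types in the tissue were read beside these genes. Of the 12 mature adipocyte markers, 4 were higher (*Cfd*, *Fabp4*, *Lipe* and *Pnpla2*) and 0 lower, with a median of 0.42, while 7, among them *Adipoq* and *Plin1*, had overlapping groups. Without *Cfd* and *Fabp4* the other 10 summed to 15800 to 21600 TMM CPM in YT-FF and 20400 to 24900 in YT-AKO, which overlap. The 4 calls became 0 without any 1 of the YT-FF libraries, 1 without YT-AKO 3 or on library totals, and 2 with the gene length correction or a floor of 10 counts. *Lipe* and *Pnpla2* encode the lipases that break triglyceride down, and they were higher by 0.84 (SE 0.247, adjusted p = 0.0477) and 0.79 (SE 0.218, adjusted p = 0.0407). Of the 10 brown and beige markers, 8 were higher and 0 lower, and their sum was 178 to 284 TMM CPM in YT-FF and 1780 to 3870 in YT-AKO. The 4 with the largest differences were *Elovl3*, *Ucp1*, *Cox8b* and *Fabp3*. Among the 10 macrophage markers, *C1qa*, *C1qb* and *C1qc* were higher. The other 7 were not called. Their list summed to 1300 to 1490 TMM CPM in YT-FF and 2010 to 2760 in YT-AKO. In TPM the sums overlapped, at 3050 to 3780 in YT-FF and 3540 to 3780 in YT-AKO. Without YT-FF 1 or YT-FF 2, no marker of the adipocyte, brown and beige, muscle, macrophage, fibroblast or endothelial list was called. Among the 10 fibroblast and progenitor markers, *Ly6a*, *Pi16* and *Lum* were higher and *Dpp4* lower, and their sums overlapped at 4110 to 5170 and 4840 to 7610. *Kdr* was lower among the 10 endothelial markers, and the 2 epithelial markers tested, *Epcam* and *Cdh1*, gave no call (0.07, adjusted p = 0.892, and -0.69, adjusted p = 0.237). The part of these cell types in the enzyme values was not tested.

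The genes most like the 3 most abundant enzymes were named by the smallest root mean square difference of centred log2 TMM CPM over the 6 libraries, among 10325 tested genes with a mean of at least 10 TMM CPM. For *Dgat2* these were *Pcca* (0.0365), *Psat1* (0.0453) and *Slc25a17* (0.0454). For *Agpat2* they were *Hadha* (0.0378), *Rab5if* (0.0693) and *Letmd1* (0.0899), and for *Dgat1* they were *Mccc1* (0.0443), *Pyurf* (0.0589) and *Sqor* (0.0654). The difference of *Hadha*, which encodes a subunit of the mitochondrial trifunctional protein of fatty acid oxidation, was 1.05 on the log2 scale beside 0.99 for *Agpat2*. The same libraries give all of these values, and with 6 of them the likeness is a description only.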

How the data were processed

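Paired-end reads were mapped with HISAT2 to mm10 by the authors, who counted fragments on GENCODE vM25 exons with featureCounts 2.0.1, without strand and without fragments that mapped to several places or genes. The deposited values are these raw counts per gene. The study's methods name DESeq2, which served as an alternative here. Counts were tested in R 4.3.3 with edgeR 4.0.16 (TMM, filterByExpr with a minimum count of 10 and total of 15, quasi-likelihood, Benjamini-Hochberg over 16807 genes). The biological coefficient of variation was 0.288. Of 55401 genes, 55141 were matched to symbols. TPM used summed exon lengths, and ratios a pseudocount of 0.1 TPM. Exon overlaps used GenomicRanges 1.54.1. Precision is limited by 3 mice per group.

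The alternatives were DESeq2 1.42.0, limma-voom (limma 3.58.1), other scalings and filters, the replicate number as a block, a spline on gene length with 6 degrees of freedom, both together, other pseudocounts, and each library left out. The fit of log2(TPM + 0.1) with limma was added after seeing the data. Named are the 10 enzymes, the targeted genes, up to 4 called genes of each list with the largest log2 fold change (the 2 most abundant where none was called), and the genes most like the 3 most abundant enzymes. Other genes, among them *Agpat1*, *Gpd1l*, *Gk5*, the overlapping genes and markers that were not called, were named after their values were seen. The enzymes and lists were chosen with earlier results of these data known. Some genes that these rules name, and the counts that need them, are left out.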

Additional observations from a re-analysis of the deposited data

How the results depend on the processing

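With limma-voom, upper-quartile normalization, no filter and a floor of 10 counts for each library, the same number of the 10 genes was called higher as in edgeR (3). DESeq2 called 5, adding *Dgat2* (log2 fold change 0.52, adjusted p = 0.0226) and *Mogat1* (0.64, 0.0387). Library totals alone called 1 higher and 1 lower, with *Agpat2* at 0.69 (0.0623), *Dgat1* at 0.35 (0.160), *Lpin2* at -0.75 (0.0357) and *Lpin3* reversed to -0.22. The gene length correction called 1, with *Agpat2* at 0.72 (0.0551), *Dgat1* at 0.58 (0.0705), and *Gpam* and *Lpin2* reversed to 0.19 and 0.10. Under it *Lpin1* was at 0.81 (0.0552) and *Gpat4* at 0.76 (0.0535), both above *Agpat2*. Limma on log2 TPM called 0 higher and 1 lower, with *Gpat3* at 0.41 (0.260), *Agpat2* at 0.30 (0.444), *Dgat1* at 0.0062 (0.980), *Lpin2* at -1.08 (0.0448), and *Gpat4*, *Lpin1*, *Lpin3*, *Dgat2* and *Mogat1* reversed to -0.18, -0.30, -0.62, -0.15 and -0.067. The cause of these shifts was not tested beyond the move of the median of all genes. Of the other pathway genes, edgeR called 8 higher and 2 lower. DESeq2 called 7 lower, upper-quartile normalization and the floor of 10 counts 4 each, the length correction 1, library totals 5 higher and 8 lower, and log2 TPM 0 higher and 10 lower.

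The deviations of same-numbered libraries from their group means gave Pearson's r across genes of 0.139, -0.134 and -0.0911 for numbers 1 to 3. Libraries with different numbers gave -0.158 to 0.175. With 3 libraries per group, these values cannot show whether the numbers pair the mice. With the replicate block, 0 of the 10 genes and 0 other pathway genes were called in either direction, and 24 genes were higher and 9 lower in all. *Gpat3* was then at 1.09 (0.0584), *Agpat2* at 0.98 (0.0618) and *Dgat1* at 0.69 (0.0834). With the block and the length correction the calls were again 0, with 59 genes higher and 22 lower in all, *Gpat3* at 1.07 (0.0557), *Agpat2* at 0.70 (0.106), *Dgat1* at 0.59 (0.107), *Gpam* reversed to 0.20 and *Lpin2* to 0.096.

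With each library left out, 0 to 5 of the 10 genes were called higher (0 without YT-FF 1 or YT-FF 2, 5 without YT-AKO 2), and 0 to 11 of the other pathway genes were higher and 0 to 6 lower. Over all genes, 0 were called without YT-FF 1, 2 without YT-FF 2 and 2925 higher and 2424 lower without YT-AKO 2. The log2 fold changes then ranged over -0.12 to 0.019 for *Gpam*, 0.95 to 1.23 for *Gpat3*, 0.39 to 0.68 for *Gpat4*, 0.91 to 1.12 for *Agpat2*, 0.18 to 0.63 for *Lpin1*, -0.51 to -0.33 for *Lpin2*, -0.14 to 0.31 for *Lpin3*, 0.57 to 0.80 for *Dgat1*, 0.44 to 0.67 for *Dgat2* and 0.44 to 0.73 for *Mogat1*. *Gpam* was reversed to 0.019 without YT-FF 3, and *Lpin3* to -0.14, -0.089 and -0.032 without YT-FF 2, YT-AKO 1 and YT-AKO 3. In all genes, edgeR called 2121 higher and 1515 lower, DESeq2 3031 and 2392, library totals 1137 and 2828, the length correction 1692 and 763, and log2 TPM 483 and 4016. The 5 log2 ratios within families kept their sign under both other pseudocounts and with each library left out. For *Dgat2* to *Dgat1* the difference was only -0.0090 without YT-AKO 2, so its sign there carries no direction.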
